A study of Sus scrofa with 23 samples.

Results

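The respiratory chain is built from proteins of 2 genomes, and the transcripts of both were followed here through pig preimplantation development. The genes were the rows of an expression table whose Ensembl symbol marks a nuclear subunit of complexes I to V (NDUFA, NDUFB, NDUFC, NDUFS and NDUFV genes, SDHA to SDHD, the UQCR genes, CYC1, COX4 to COX8 and the ATP5 genes) or 1 of the 13 protein genes of mitochondrial DNA. They numbered 70 of the 8603 genes in the table, 57 nuclear and 13 mitochondrial. By the name under which it was deposited, the table is one of differentially expressed genes and not of all genes. How its rows were chosen was not examined. Symbols were known for 7371 rows, and 15 further symbols that fit the rule, among them CYC1, COX6C, UQCRB, NDUFA1 and ATP5MC2, were not analysed here. The nuclear genes fell to complex I (25), complex II (4), complex III (6), complex IV (11, with NDUFA4) and complex V (11), and the mitochondrial genes to complex I (7), complex III (1), complex IV (3) and complex V (2). COX7A2L, a supercomplex factor, and ATP5IF1, an inhibitor of ATP synthase, were the only nuclear rows that are no subunit.

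The expression table holds oocytes and embryos of 3 groups with 1 library per condition, and the further replicate libraries that the study describes were not analysed here. IV-D were Duroc embryos fertilized in vivo by artificial insemination and flushed from sows, all sired by the same boar, with oocytes from 2-year-old Duroc sows. NT-D and NT-LW were cloned embryos made by somatic cell nuclear transfer, with fibroblasts grown from the ear of a Duroc and of a Laiwu boar aged 1 year as donors, respectively, in recipient oocytes of hybrid sows that were matured in vitro, followed by in vitro culture. Both cloned groups therefore shared a source of cytoplasm that differed from that of IV-D, as well as the culture, and each rested on 1 donor animal. Per the study the cloned embryos were all male, while male and female IV-D embryos were pooled. Breed of the cytoplasm, maturation and culture, sex and nuclear transfer cannot be told apart in the comparison of clones with IV-D. Stages were the MII oocyte (OC), the 1-cell (1C), 2-cell (2C), 4-cell (4C) and 8-cell (8C) embryo, the morula (MO) and 2 pieces of the cut blastocyst, IT (inner cell mass with trophectoderm) and TE (trophectoderm). IV-D and NT-D had 8 libraries each and NT-LW had 7, since both cloned groups had the NT-D oocyte library as their first stage. The study's methods give the recipient oocytes as those of hybrid sows, whereas the label of this library gives Duroc, and which of these holds for it was not settled. RNA was primed on its poly(A) tail, so that values can depend on the tail as well as on the amount of a transcript. Pools of embryos went into a library, and fewer cells and less RNA per cell cannot be told apart.

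Electrons from NADH and succinate enter the chain through complexes I and II, pass by ubiquinone to complex III and by cytochrome c to complex IV, which reduces oxygen, and the proton gradient so made drives complex V, the ATP synthase. Complex II is the only complex with no mitochondrially encoded subunit. Mammalian oocytes hold a large store of mitochondria that is divided among the blastomeres, and the mitochondrial genome is transcribed inside the organelle, while nuclear subunits are imported.

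Library depth lay between 14952784 and 22991067 fragments, recovered from the steps between the deposited FPKM values (fragments per gene length and library depth). The genes of the table held 82.8 to 86.9% of them in libraries up to the 4-cell stage and 94.5 to 97.2% from the 8-cell stage. A nuclear gene of the set had a median of 547 fragments in a library up to the 4-cell stage and of 7757 in a later library. Oocyte markers (8 of 10 in the table) summed to at least 498 FPKM in every library up to the 4-cell stage and to at most 243 FPKM from the 8-cell stage. The 6 trophectoderm markers in the table summed to 0.58 to 28.0 FPKM up to the 4-cell stage, 7.65 to 17.5 FPKM at the 8-cell stage and 170 to 2916 FPKM from the morula, and the IV-D 4-cell sum of 28.0 was mostly TFAP2C with 25.6 FPKM. In IT, trophectoderm markers summed to 1410 FPKM in IV-D, 1256 in NT-D and 1730 in NT-LW. The 3 markers of the inner cell mass in the table summed to 63.5, 11.9 and 13.5 FPKM there. They were not particular to IT, with sums of 397, 86.7 and 172 FPKM in the 4-cell embryo of IV-D, NT-D and NT-LW. In the morula they summed to 30.9, 28.5 and 30.5 FPKM. Whether the IT pieces of the groups held like shares of inner cell mass was not tested. A gene was called higher or lower where the difference of log2(FPKM + 1) between 2 libraries passed 1 and either library held at least 1 FPKM. With 1 library per condition there is no test and no error between embryos. The share of all genes of the table called the same way, the background, is given beside the first count of a comparison and direction. Since the table is named as one of differentially expressed genes, the background is a share of its rows and not of all pig genes.

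Upstream sequence is shown for the 3 nuclear genes with the largest and the 3 with the smallest difference between stages up to the 4-cell and from the 8-cell embryo, because the comparison of stages turns on how alike the nuclear genes moved. Each run is the 250 bases before the RefSeq gene start on Sscrofa11.1, read on the gene's strand. Capitals mark matches to any of 5 motifs on either strand. NRF1, GABPA and YY1 are factors known for their sites in respiratory genes. The core of the NRF1 site was searched as GCGCANGC. For GABPA, a factor of the ETS family, the letters were CCGGAAG. For YY1 they were AAGATGGC. SP1, which binds GC boxes of many promoters, was searched as GGGCGG. The TATA box was searched with the letters TATAAA. The runs lie at chr2:76902969-76903218 (plus strand), chr2:4867393-4867642 (minus strand) and chr12:25110290-25110539 (plus strand) for the genes of the largest difference, and at chr3:97950865-97951114 (plus strand), chr2:8103314-8103563 (minus strand) and chr7:113659938-113660187 (minus strand) for those of the smallest.
UQCR11: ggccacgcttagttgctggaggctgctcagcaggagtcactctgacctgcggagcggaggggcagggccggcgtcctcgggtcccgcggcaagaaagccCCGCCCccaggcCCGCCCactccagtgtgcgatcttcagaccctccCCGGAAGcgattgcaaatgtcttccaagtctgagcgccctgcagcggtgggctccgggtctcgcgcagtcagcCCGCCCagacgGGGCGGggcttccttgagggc
NDUFS8: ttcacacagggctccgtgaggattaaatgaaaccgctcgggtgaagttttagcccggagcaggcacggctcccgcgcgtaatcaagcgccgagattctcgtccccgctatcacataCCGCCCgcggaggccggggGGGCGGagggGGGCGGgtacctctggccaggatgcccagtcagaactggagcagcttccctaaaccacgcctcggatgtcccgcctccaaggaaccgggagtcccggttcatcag
ATP5MC1: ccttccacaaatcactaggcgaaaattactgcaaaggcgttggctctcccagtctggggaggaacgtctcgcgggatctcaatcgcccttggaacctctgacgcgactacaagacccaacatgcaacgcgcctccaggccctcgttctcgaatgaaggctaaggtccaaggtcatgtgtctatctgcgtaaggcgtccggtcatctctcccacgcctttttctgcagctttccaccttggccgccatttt
COX7A2L: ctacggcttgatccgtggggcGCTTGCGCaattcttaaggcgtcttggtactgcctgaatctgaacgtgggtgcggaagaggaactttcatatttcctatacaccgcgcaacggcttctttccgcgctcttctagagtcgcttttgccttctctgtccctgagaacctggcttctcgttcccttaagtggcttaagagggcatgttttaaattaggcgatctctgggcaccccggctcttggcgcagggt
COX8A: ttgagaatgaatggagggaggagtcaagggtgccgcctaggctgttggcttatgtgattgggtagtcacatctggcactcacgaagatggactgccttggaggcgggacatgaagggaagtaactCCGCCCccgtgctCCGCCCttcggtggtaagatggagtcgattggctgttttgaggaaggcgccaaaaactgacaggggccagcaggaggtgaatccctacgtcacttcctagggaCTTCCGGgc
NDUFB1: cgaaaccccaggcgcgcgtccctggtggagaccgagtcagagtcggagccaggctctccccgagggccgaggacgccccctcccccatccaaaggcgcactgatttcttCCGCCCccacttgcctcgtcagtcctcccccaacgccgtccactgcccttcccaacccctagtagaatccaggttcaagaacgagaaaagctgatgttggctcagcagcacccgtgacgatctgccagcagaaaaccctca
Matches were found on both sides. In the runs shown, UQCR11 and COX8A each held 1 GABPA match, at 105 and 9 bases before the start, beside 4 and 2 SP1 matches. COX7A2L held 1 NRF1 match at 229 bases, NDUFS8 and NDUFB1 held SP1 matches alone, and ATP5MC1 held none. The window used for the shares below runs on past the gene start. In that window UQCR11 held 2 NRF1 matches and COX8A held 2 GABPA matches, while the counts of the other genes shown were unchanged.

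Over the whole set the windows held the NRF1, GABPA and YY1 letters more often than those of other genes, and the SP1 letters about as often as those of the other genes in the table when both strands were searched. In the window from 250 bases before to 50 after the start, 36.8% of the 57 nuclear genes held the NRF1 core, against 13.3% of 19531 RefSeq protein-coding genes and 19.4% of the 6817 of them that are in the table. The GABPA letters were in 35.1%, against 11% and 16.6%, and the YY1 letters in 8.77%, which is 5 genes, against 2.48% and 3.45%. The SP1 letters were found in 61.4%, against 50.6% and 63.1%, and TATAAA in 3.51%, which is 2 genes, against 10.9% and 8.38%. Median GC content of the windows was 59.0% in the set and 58.7% over all genes. At least 1 of the NRF1, GABPA and YY1 matches was present in 35 of the 57 genes, and these did not have the larger differences between the 4-cell and the 8-cell stage. Their median difference was 2.64 in IV-D, 2.06 in NT-D and 1.75 in NT-LW, below that of the 22 genes without a match (3.41, 2.54 and 2.66). A match is a description of letters and not of binding.

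Nuclear and mitochondrial transcripts followed different courses. Shares of FPKM, here and below, are of the sum over the genes of the table and not over all genes of a library. Up to the 4-cell stage the 57 nuclear genes together made up 0.452 to 0.815% of this sum, and from the 8-cell stage 2.21 to 6.60%. The mitochondrial genes made up 4.0 to 33.3% in the earlier libraries and 17.2 to 40.1% in the later ones, and these ranges overlapped. The summed mitochondrial FPKM per summed nuclear FPKM in IV-D was 6.46 in the oocyte, 20.3, 32.9 and 50.4 at the 1-, 2- and 4-cell stage, 7.92 at the 8-cell stage, and 5.37, 4.98 and 6.79 in the morula, IT and TE. In NT-D the ratio went from 16.6 in the recipient oocyte through 13.6, 18.1 and 48.2 to 17.1 at the 8-cell stage and 6.97, 3.01 and 4.75 later. In NT-LW it was 11.8, 11.5 and 40.8 up to the 4-cell stage, 14.1 at the 8-cell stage, and 3.61, 3.51 and 8.59 later. The 4-cell embryo thus held the highest ratio of its group in all 3 groups. Between medians of log2(FPKM + 1), the nuclear minus mitochondrial difference was -8.29 to -5.43 in the 11 earlier libraries and -5.75 to -3.06 in the 12 later ones.

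**Figure D1:**
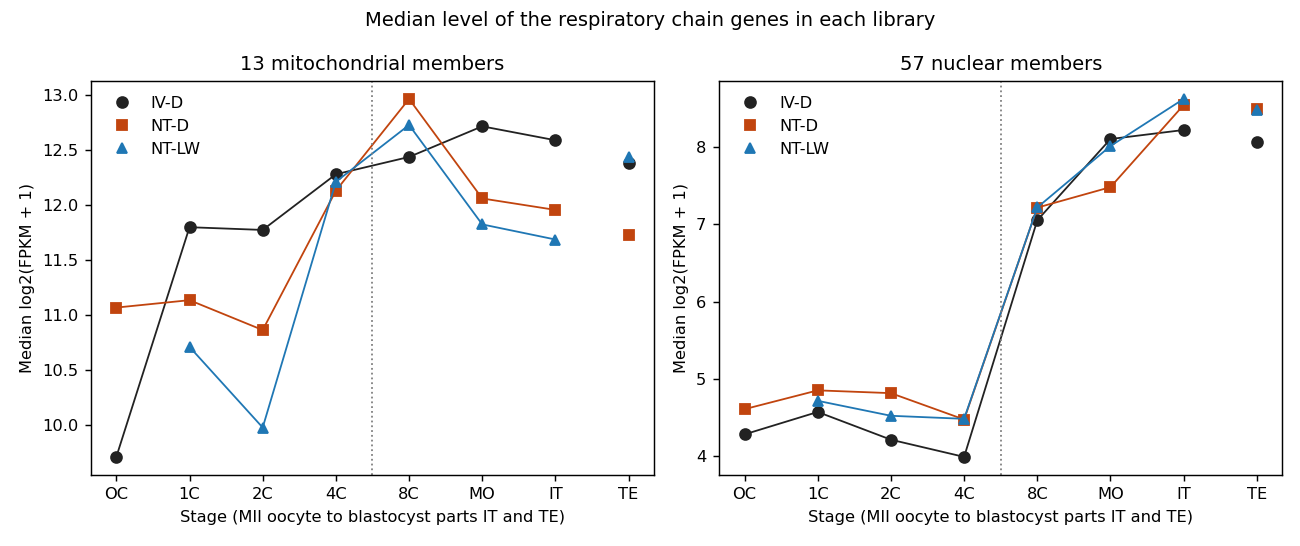
Median log2(FPKM + 1) of the 13 mitochondrial (left) and the 57 nuclear (right) respiratory chain genes by stage, 1 point per library, with lines joining the stages up to IT within a group and TE set apart. The y axes differ and do not start at 0. The dotted line stands between the 4-cell and the 8-cell stage, where nuclear medians go from 3.99 to 7.05 in IV-D, and the mitochondrial points show the IV-D oocyte and the NT-LW 2-cell library lowest.

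Most nuclear genes were higher in the 8-cell than in the 4-cell embryo. Of the 57, 52 were higher at the 8-cell stage in IV-D (background 35%), 52 in NT-D (background 31.4%) and 51 in NT-LW (background 28.1%). None was lower in IV-D (background 28.1%), and COX8A alone was lower in NT-D (background 28.7%) and in NT-LW (background 25.6%). The median difference was 2.90 in IV-D, 2.42 in NT-D and 2.14 in NT-LW, beside 0.25, 0.13 and 0.05 over all genes tested. Of the mitochondrial genes few were called at this step, with 1, 3 and 3 of 13 higher and medians of 0.17, 0.62 and 0.53, of which the IV-D median was -0.22 with median-ratio factors. By complex, the median difference of nuclear genes in IV-D, NT-D and NT-LW was 2.66, 2.27 and 2.33 for complex I, 2.82, 1.84 and 1.40 for complex II, 4.37, 2.92 and 2.81 for complex III, 2.13, 1.88 and 2.08 for complex IV, and 3.5, 2.48 and 1.99 for complex V. Complex III was highest in each group, with all 6 of its nuclear genes called higher.

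In 43 of the 57 nuclear genes (background 15.3%) the lowest of the 12 libraries from the 8-cell stage lay above the highest of the 11 up to the 4-cell stage, and in none was the order turned (background 13.4%). No mitochondrial gene separated the stages in this way. The 43 comprised 21 of 25 genes of complex I, 1 of 4 of complex II (SDHD), all 6 of complex III, 6 of 11 of complex IV and 9 of 11 of complex V. The 14 others were NDUFA6, NDUFB1, NDUFB5, NDUFV1, SDHA, SDHB, SDHC, COX6A2, COX7A2L, COX7B, COX7C, COX8A, ATP5ME and ATP5MK. Stages are not replicates.

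**Figure D2:**
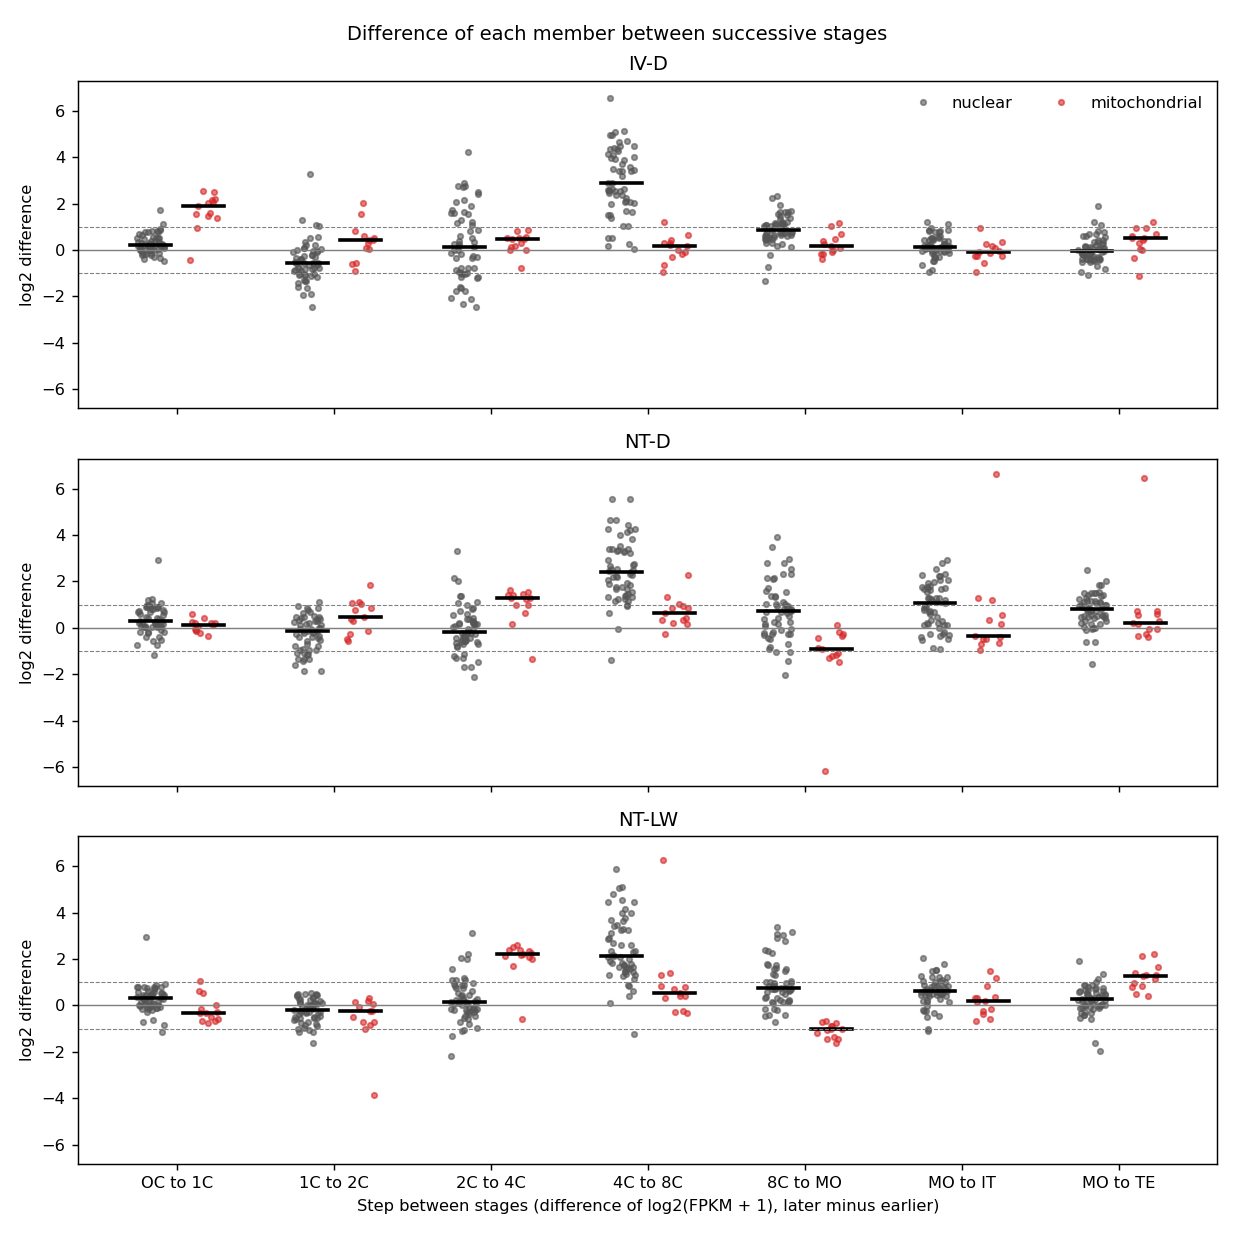
Difference of log2(FPKM + 1) of each nuclear (grey) and mitochondrial (red) gene between successive stages, later minus earlier, in IV-D, NT-D and NT-LW, with black bars at the medians and dashed lines at -1 and 1, the call limits. The oocyte of the NT-LW panel is the NT-D oocyte library. The median of the nuclear points is highest from 4C to 8C in all 3 panels, and 11 of the 13 mitochondrial points lie above 1 from OC to 1C in IV-D and 12 from 2C to 4C in NT-LW. The points below -3 are ATP8.

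UQCR11, a small subunit of complex III, had the largest difference between the earlier and later stages (7.17 in mean log2). In IV-D its FPKM was 1.90, 2.34, 1.84 and 1.22 from the oocyte to the 4-cell stage, then 208, 465, 665 and 709 at the 8-cell stage, in the morula, IT and TE. NT-D gave 1.55, 3.71, 4.09 and 3.87 and then 229, 298, 1450 and 847, and NT-LW gave 3.28, 3.48 and 4.33 and then 312, 495, 1162 and 773. All 11 earlier values lay below all 12 later ones in every group, and the low values rested on few fragments. Between groups it was called higher than IV-D at the 4-cell stage in NT-D (1.13) and NT-LW (1.26) and in IT in NT-D (1.12). The IV-D 4-cell value came from 11 fragments, with an exact Poisson 95% interval of 0.611 to 2.19 FPKM that covers counting error only.

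Next in size were NDUFS8 (6.69), an iron-sulfur subunit of complex I, ATP5MC1 (6.48), which encodes the ring-forming c subunit of ATP synthase, UQCRC2 (6.39), a core protein of complex III, NDUFA9 (6.28) and NDUFS1 (5.87), the largest iron-sulfur subunit of complex I. NDUFS8 differed from UQCR11 in its time course. It was at or below 1.99 FPKM up to the 2-cell stage in all groups and already at 27.1, 11.5 and 10.7 FPKM in the IV-D, NT-D and NT-LW 4-cell embryo, with a further increase to 164, 65.8 and 76.1 at the 8-cell stage. NDUFS1, COX6A1, COX6A2, COX7A2 and ATP5PF were likewise called higher from the 2-cell to the 4-cell stage in all 3 groups. UQCRC2, in contrast, was at 6.35, 2.46 and 3.73 FPKM at the 4-cell stage and at 226, 160 and 133 at the 8-cell stage, and then stayed between 213 and 295.

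The genes of highest mean level were NDUFA4 and COX8A in complex IV, ATP5PO and ATP5F1A in complex V, UQCR10 and UQCRQ in complex III, SDHD and SDHB in complex II, and NDUFB9 and NDUFS5 in complex I. NDUFA4, counted with complex IV, in which it sits, was at 73.5 to 222 FPKM in the 11 earlier libraries and 1275 to 4029 in the 12 later ones. ATP5PO, the stalk subunit known as OSCP, went from 60.8 to 150 FPKM in the earlier to 848 to 3248 in the later libraries. COX4I1, the largest nuclear subunit of complex IV, was between 7.05 and 59.0 FPKM in the earlier libraries and at 2056 in the IV-D, 642 in the NT-D and 828 in the NT-LW 8-cell embryo. Its 4-cell to 8-cell difference in log2 was 5.10 in IV-D, behind UQCR11 and NDUFA9, and 4.65 in NT-D, behind UQCR11 and UQCRC2.

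**Figure D3:**
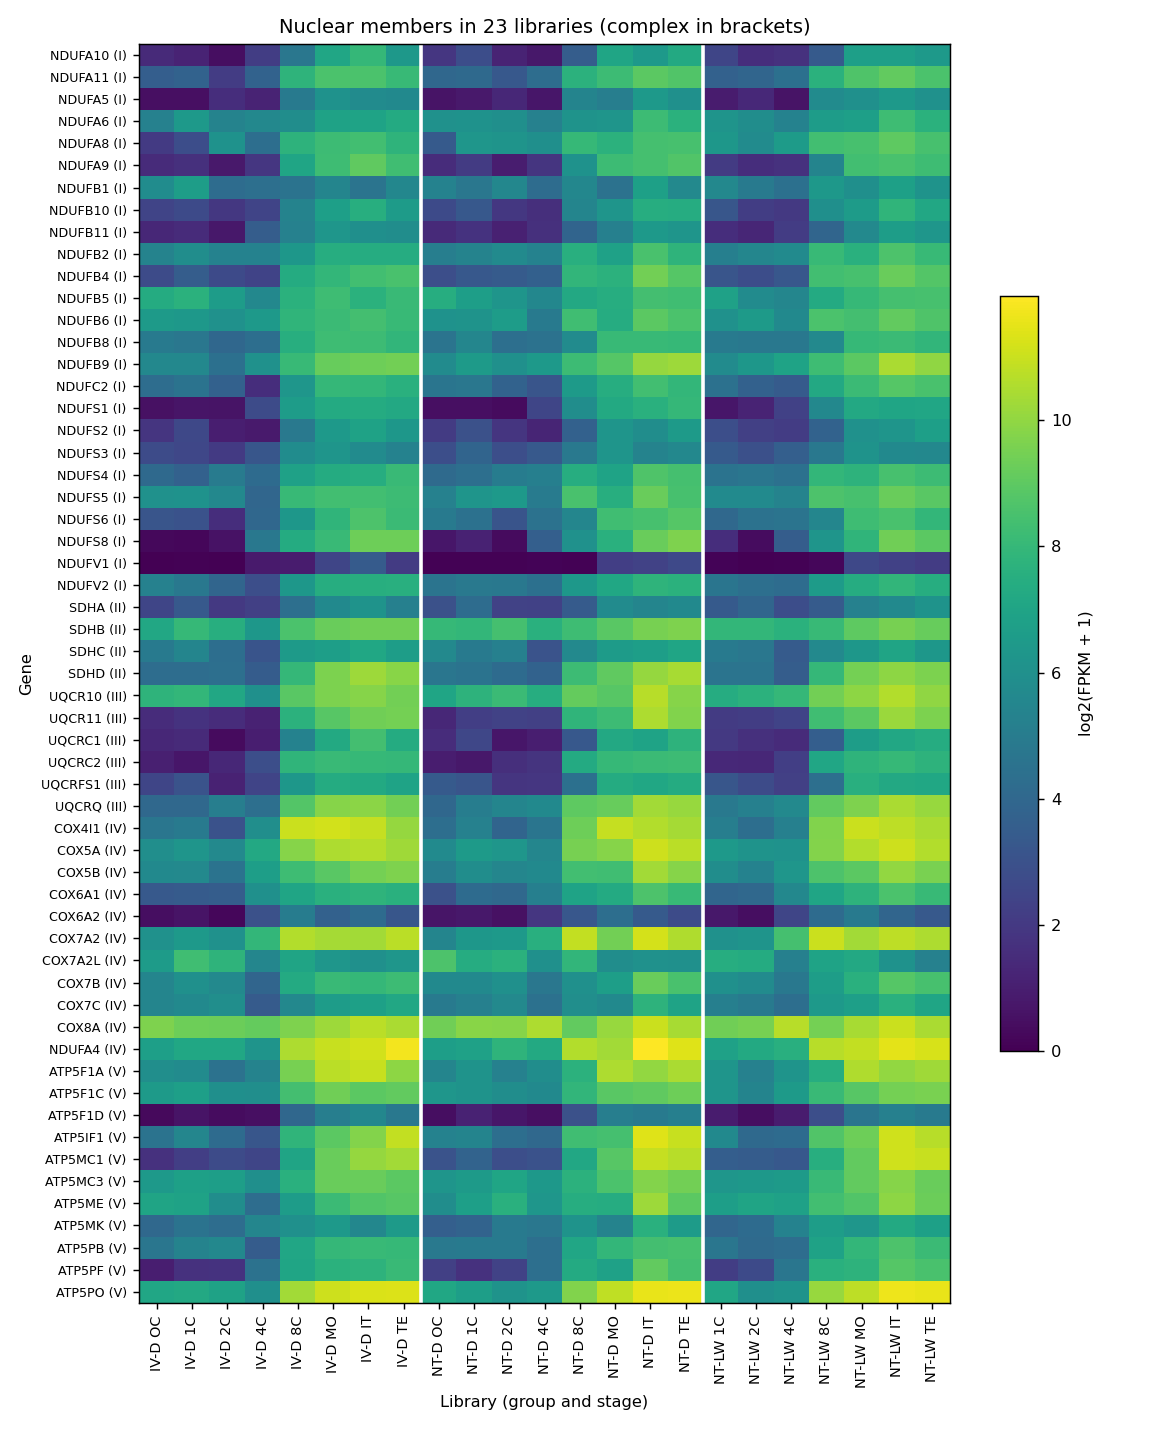
log2(FPKM + 1), as colour from 0 (dark) upward, of the 57 nuclear genes (rows, complex in brackets) in the 23 libraries (columns, by group and stage, white lines between groups). Most rows turn from dark to light between 4C and 8C within each group, COX8A is light throughout at 547 FPKM or more, and NDUFV1 stays dark with at most 9.79 FPKM.

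Some genes did not separate the earlier from the later libraries. COX8A, the ubiquitous form of the smallest complex IV subunit, was high from the start. In IV-D it was at 809, 646, 628 and 568 FPKM up to the 4-cell stage and at 806, 1207, 1711 and 1382 afterwards. In NT-D the 4-cell embryo had 1454 FPKM and the 8-cell embryo 547, and in NT-LW 1666 and 706, so that both cloned groups were lower at the 8-cell stage by 1.41 and 1.24 in log2 where IV-D was 0.50 higher. COX7A2L was the only nuclear gene whose mean was lower in the later stages, by 0.68 in log2, with 36.1 to 391 FPKM before and 37.1 to 233 FPKM after. It was nevertheless higher at the 8-cell than at the 4-cell stage, with 127 against 44.0 FPKM in IV-D, 233 against 62.7 in NT-D and 124 against 36.1 in NT-LW. NDUFB1, a small membrane-arm subunit of complex I, had 17.5 to 102 FPKM before and 21.8 to 112 after, with a difference of 0.59, and its 4-cell to 8-cell difference was 0.17 in IV-D, 1.33 in NT-D and 1.93 in NT-LW. NDUFV1, the flavoprotein subunit that takes electrons from NADH, had the lowest maximum of the set. It was at or below 0.876 FPKM in every library up to the 8-cell stage and first reached 4.61, 3.66 and 4.95 FPKM in the morulae of IV-D, NT-D and NT-LW. The length behind its FPKM was 4775 bases, beside a coding length of 1395 bases.

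**Figure D4:**
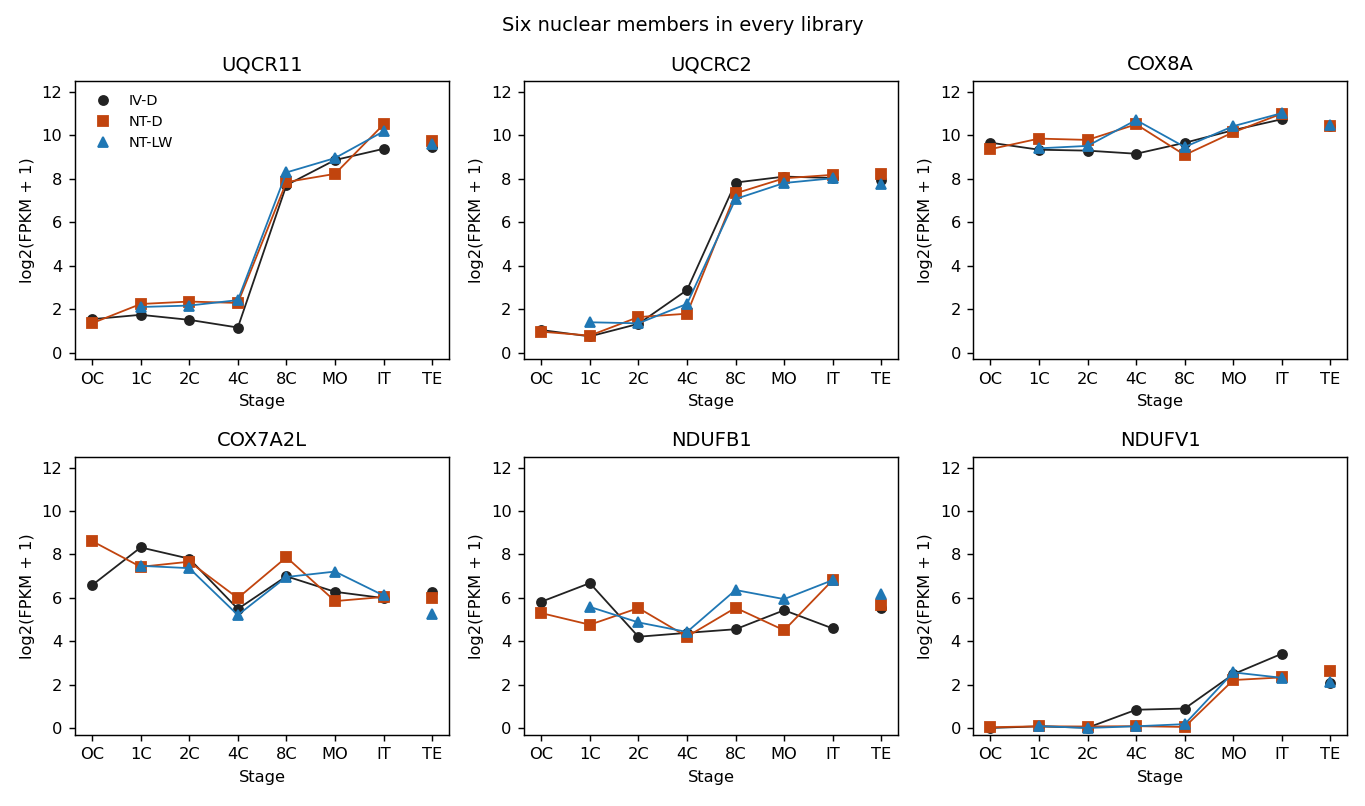
log2(FPKM + 1) of UQCR11, UQCRC2, COX8A, COX7A2L, NDUFB1 and NDUFV1 by stage, 1 point per library, with lines joining the stages up to IT within a group and TE set apart. UQCR11 and UQCRC2 step up from 4C to 8C in all groups, COX7A2L is higher at 8C than at 4C in all groups but below its 2C value in IV-D and NT-LW, COX8A is lower at 8C than at 4C in the clones alone, and NDUFV1 is higher at MO than at 8C.

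Isoforms and duplicate genes moved unequally. ATP5MC1 and ATP5MC3 encode the same mature c subunit. ATP5MC3 was the higher in all 11 libraries up to the 4-cell stage, where the ratio of ATP5MC1 to ATP5MC3 was 0.0255 to 0.143, and in the 3 8-cell libraries, where it was 0.648 to 0.681. From the morula on, ATP5MC1 was the higher in 8 of 9 libraries, with ratios of 0.972 to 3.36. In IV-D ATP5MC1 went from 4.61 FPKM at the 4-cell stage through 126 and 603 to 1089 in IT and 1275 in TE, whereas ATP5MC3 went from 61.7 through 194 and 601 to 597 and 500. COX6A1, the widely used form of its subunit, was above COX6A2, the form of heart and skeletal muscle, in all 23 libraries, by ratios of 4.03 to 65.1. COX7A2 passed COX7A2L, a supercomplex factor and not an isoform of the same subunit, in 3 of 11 earlier libraries and in all later ones. Where such pairs or pseudogene copies share sequence, the split of fragments between them is uncertain.

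After the 8-cell stage more nuclear genes were higher. On the FPKM scale as deposited, the step to the morula had more calls than that to IT in IV-D and NT-LW, and fewer in NT-D. From the 8-cell stage to the morula, 27 of 57 were higher in IV-D (background 12.3%), 21 in NT-D (background 31.6%) and 21 in NT-LW (background 22.4%), so that the NT-D and NT-LW counts lay nearer to the background. From the morula to IT, 2 were higher in IV-D (background 7.7%), 29 in NT-D (background 9.31%) and 13 in NT-LW (background 9.1%). In IV-D the median difference was 0.88 at the first and 0.16 at the second of these steps, in NT-D 0.71 and 1.07, and in NT-LW 0.76 and 0.61. The median of all genes tested shifted by 0.45 and -0.64 in NT-D and by 0.19 and -0.51 in NT-LW at these steps, against -0.03 and -0.16 in IV-D. The counts of the second step depended on the scale, and with median-ratio factors they were 9 in IV-D and 41 in NT-LW, while with FPKM rescaled to a fixed sum the NT-LW count was 5. In IT, nuclear genes summed to 5.07% of FPKM in IV-D, 6.60% in NT-D and 6.36% in NT-LW. Complex IV (7 of 11 higher) and complex V (6 of 11) took part in the NT-D step as did complex I (12 of 25), and ATP5IF1 went from 349 to 2666 FPKM. From the morula to TE, 3 nuclear genes were higher in IV-D (background 12%), 21 in NT-D (background 8.66%) and 4 in NT-LW (background 8.79%).

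The highest and lowest places among the mitochondrial genes were taken by much the same genes in most libraries. COX3 and ATP6 were among the 4 highest in 23 of 23 libraries, COX2 in 22 and COX1 in 20, and these 4 genes made up 67.0 to 79.3% of the mitochondrial FPKM. COX3, with 4104 to 93963 FPKM, was highest in 17 libraries, ATP6 in 4 and COX1 in 2. ND3 was next to lowest in 22 libraries, with 137 to 2021 FPKM, and ATP8 was lowest in all 23, with 0 to 557 FPKM. Some mitochondrial genes overlap. The longest 2 overlaps on the reference mitochondrial genome are shown, since fragments over them can belong to 2 genes. Overlaps are shared by ATP8 and ATP6 (MT:9120-9162, plus strand), by ND4L and ND4 (MT:11359-11365, plus strand) and by ND5 and ND6 (MT:14739-14755, given on the plus strand, with ND6 on the minus strand).
ATP8 and ATP6: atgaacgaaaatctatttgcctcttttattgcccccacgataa
ND5 and ND6: ttaattaccacgagtaa
The first of these takes 43 of the 204 bases of ATP8. How fragments over 2 genes were assigned is not given in the sources used here. ATP8 rested on 0 to 1698 fragments, and in NT-LW 4-cell embryos it had none, which allows up to 0.768 FPKM at a floor of 3 fragments, while ATP6 of the same library was at 39467 FPKM. In the NT-D morula 2 fragments gave 0.519 FPKM (exact Poisson 95% interval 0.0628 to 1.87). The libraries were not made with a kit that keeps the strand, so that ND6 and transcripts antisense to it cannot be told apart.

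Mitochondrial transcripts were higher after different steps in IV-D and in the clones. From the oocyte to the 1-cell stage 11 of 13 were higher in IV-D (background 13.7%), 0 in NT-D (background 7.11%) and 1 in NT-LW (background 7.29%), with medians of 1.91, 0.12 and -0.32. COX1, the catalytic core of complex IV, was at 3210 FPKM in the IV-D oocyte and 12108 in the IV-D 1-cell embryo, and COX3 at 4104 and 16959. The NT-D recipient oocyte had 11676 FPKM of COX1 and 10885 of COX3, above the IV-D oocyte and close to the NT-D 1-cell embryo with 9272 and 9960. ND4L was the gene of IV-D that went the other way, from 605 to 455 FPKM. The IV-D oocyte is a single library, and every IV-D value of this step rests on it. At the same step 4 of the 5 fibroblast markers in the table were higher in each of the 3 groups, against the same backgrounds. Their summed level was 1.41 FPKM in the oocyte and 25.7 in the 1-cell library of IV-D, for which no fibroblast was used, and 1.63 and 27.0 in NT-D. Their part in the mitochondrial values was not tested.

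Between 2-cell and 4-cell embryos 0 of 13 mitochondrial genes were higher in IV-D (background 34.4%), 8 in NT-D (background 17.3%) and 12 in NT-LW (background 16.5%), with medians of 0.49, 1.30 and 2.23. With median-ratio factors the IV-D median was -0.33 and the NT-D count 5. In NT-LW COX3 went from 7423 to 43115 FPKM, ATP6 from 7475 to 39467 and ND4 from 2121 to 12864. The NT-LW 2-cell library was the lower end of this step. Against the IV-D 2-cell library it had 11 of 13 mitochondrial genes lower (background 3.51%), with a median of -1.54, while the NT-D 2-cell library had 3 lower (background 1.9%, and 5 with median-ratio factors) and a median of -0.45. Of the 57 nuclear genes, 19 were higher in IV-D, 7 in NT-D and 9 in NT-LW at this step, which lies near or below the background. There were 13 lower in IV-D (background 12.3%) and 8 in NT-D (background 8.36%), both above the background, and 4 in NT-LW (background 19.9%). The medians of the nuclear genes were 0.13, -0.17 and 0.13. With median-ratio factors the IV-D count of higher nuclear genes was 12 and the IV-D median -0.61. With mitochondrial genes left out of the depth the NT-LW count of higher nuclear genes was 14. After the steps described, mitochondrial FPKM shares of the 4-cell embryo were 24.7% in IV-D, 33.3% in NT-D and 33.3% in NT-LW.

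From the 8-cell stage to the morula 6 of 13 mitochondrial genes were lower in NT-D (background 12%) and 8 in NT-LW (background 12.4%), and medians of -0.92 and -1.02. The NT-LW count was 4 with FPKM rescaled to a fixed sum and 13 with median-ratio factors. In IV-D the median was 0.20. ND1, a membrane-arm subunit of complex I, went from 7967 to 3535 FPKM in NT-D and from 5855 to 2888 in NT-LW, beside 7464 and 6706 in IV-D. All 13 were at a lower value in the NT-LW morula than in the 8-cell embryo. In TE the NT-LW library had the highest mitochondrial share of all 23, at 40.1%.

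Between clones and IV-D embryos the median difference of the nuclear genes lay between -0.44 and 0.51 at every stage, while single genes were called in either direction. The IV-D libraries are shared by both comparisons. At the 4-cell stage 13 of 57 were higher in NT-D (background 9.74%) and 13 in NT-LW (background 10.8%), led in both by ATP5ME, a membrane subunit of ATP synthase, with 78.1 and 116 FPKM against 18.4 in IV-D, and NDUFA8, with 61.9 and 92.9 against 19.2. There were 9 lower in NT-D (background 13.2%) and 3 in NT-LW (background 9.43%), among them in both NDUFB11, an X-linked gene, with 2.14 and 3.39 FPKM against 10.7, and COX5A, with 44.7 and 67.6 against 149. At the 8-cell stage 12 were lower in NT-D (background 17.4%) and 13 in NT-LW (background 17.3%), a share near the background. There were 1 higher in NT-D (background 10.8%) and 5 in NT-LW (background 16.3%). With FPKM rescaled to a fixed sum 19 were lower and 0 higher in NT-D, and with mitochondrial genes left out of the depth 8 were lower and 8 higher in NT-LW. UQCRC1, a core protein of complex III, was at 8.94 and 11 FPKM in NT-D and NT-LW against 39.3 in IV-D, UQCRFS1, the Rieske iron-sulfur protein, at 20.7 and 19.8 against 79.9, and ATP5F1A, the alpha subunit of ATP synthase, at 207 and 174 against 727. NDUFB2 was higher in both, with 188 and 270 against 81.2. Oocyte markers were also higher in the clones at this stage, 5 of 8 in each group against the backgrounds of 10.8 and 16.3%, and the mitochondrial genes took 37.8 and 36.1% of FPKM against 24.4%. Their part in these differences was not tested.

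In the morula 3 nuclear genes were lower in NT-D (background 3.88%), or 14 with median-ratio factors, and 1 was higher in NT-LW (background 11.6%). Only 5 of the 57 lay above IV-D in the NT-D morula, with a median of -0.44 beside 0.22 over all genes tested. In the NT-LW morula 25 lay above IV-D, with medians of -0.07 and 0.21. In IT 11 of 57 were higher in NT-D (background 9.47%) and 10 in NT-LW (background 8.7%), and 4 (background 15.4%) and 3 (background 13.7%) were lower. NDUFB1 was at 112 FPKM in each cloned group against 23.2 in IV-D, ATP5MK, a small membrane subunit of ATP synthase, at 193 and 156 against 45.0, and ATP5IF1 at 2666 and 2240 against 875. UQCRC1 was lower with 124 and 142 FPKM against 339, and NDUFA10 with 89.2 and 106 against 252. Inner cell mass markers were also lower in IT of both cloned groups, as given above, but the same genes were already lower in the cloned 4-cell embryos. The part of tissue make-up in these differences was not tested. In TE 1 nuclear gene, COX7A2L, was lower in NT-LW (background 10.2%), and with median-ratio factors it was not called. Between the clones, NT-D had 2 nuclear genes lower than NT-LW at the 2-cell stage (background 15.5%) and 5 in the morula (background 7.02%). The 2-cell count was 5 with a pseudocount of 0.1 or rescaled and 1 with median-ratio factors, and the morula count was 3 with mitochondrial genes left out of the depth.

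Long and short genes went apart in these comparisons. Across the nuclear genes, Spearman's rho between RefSeq coding length (171 to 2184 bases, median 459) and the difference from IV-D was -0.55 in NT-D (n = 56) and -0.65 in NT-LW (n = 56) at the 8-cell stage, and -0.69 and -0.64 in IT (n = 57). Across all genes with a coding length in the same range, rho was -0.13 and -0.08 at the 8-cell stage and -0.12 and -0.13 in IT. The 12 genes lower in the NT-D 8-cell embryo had a median coding length of 640.5 bases and those lower in NT-LW of 825 bases, and the 5 higher in NT-LW of 390 bases. The relation was not one of clones against IV-D in general. In the morula rho was 0.59 for NT-D and -0.49 for NT-LW, and between NT-D and NT-LW themselves it was 0.61 at the 8-cell stage and 0.74 in the morula. The points of each rho share their 2 libraries, and no p is given. Across all genes of that length range rho was 0.20 for the NT-D morula against IV-D and 0.20 against NT-LW. It was 0.0041 for the NT-LW morula against IV-D and -0.05 between NT-D and NT-LW at the 8-cell stage. For the nuclear genes against IV-D, rho in NT-D and NT-LW was -0.26 and -0.27 at the 4-cell stage and 0.36 and -0.14 in TE.

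**Figure D5:**
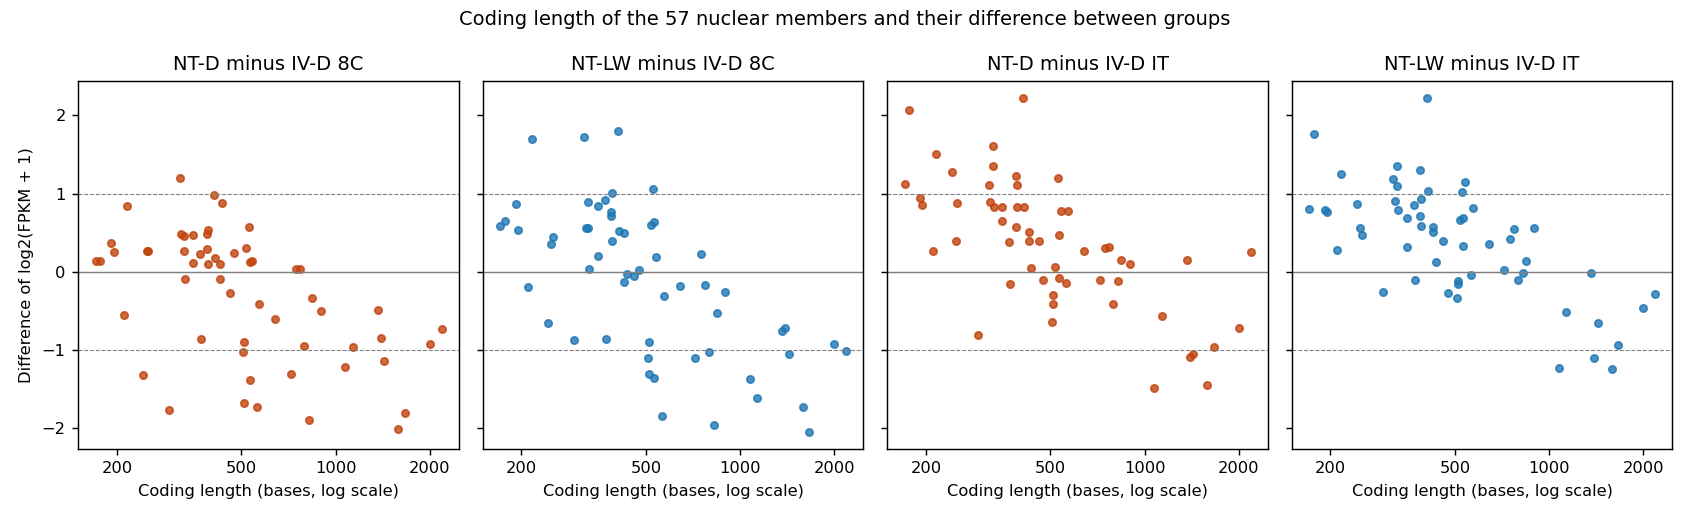
Coding length of the 57 nuclear genes (log scale, bases) against their difference of log2(FPKM + 1) between a cloned group and IV-D at the 8-cell stage (2 left panels) and in IT (2 right panels), 1 point per gene, with dashed lines at -1 and 1. In all 4 panels the points go down from left to right, with rho between -0.55 and -0.69, and the panels of a stage share the IV-D library.

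Other genes of mitochondrial function were taken from lists. Their counts at the 4-cell to 8-cell step in IV-D, NT-D and NT-LW stand against backgrounds of 35, 31.4 and 28.1% higher and of 28.1, 28.7 and 25.6% lower. At the 4-cell to 8-cell step, 12 of 12 complex I assembly and accessory factors were higher in IV-D and 10 in each cloned group, with 0 lower and medians of 2.03, 2.0 and 1.94. Of 17 assembly factors of complexes II to V, 13, 13 and 12 were higher, and SCO1, a copper chaperone of complex IV, was lower in IV-D. Of 21 genes of mitochondrial gene expression 14, 13 and 11 were higher and 0 lower. TFAM, which packages and transcribes mitochondrial DNA, was not among them, with differences of -0.13, 0.43 and -0.34. Cytochrome c (CYCS) went from 94.8 to 1247 FPKM in IV-D, from 120 to 945 in NT-D and from 99.9 to 1139 in NT-LW, and the phosphate carrier SLC25A3 from 18.9 to 848, 8.49 to 276 and 10.2 to 294. In the list of pyruvate dehydrogenase and the citric acid cycle 12, 8 and 5 of 17 were higher and 1 lower in each group, the NT-LW count being near the background, with DLD, the shared dihydrolipoyl dehydrogenase, at 10.3 FPKM in the 4-cell and 430.5 FPKM in the 8-cell embryo of IV-D. Of the glycolytic genes 6, 3 and 8 of 13 were higher and 2, 1 and 1 lower, the NT-D count of higher genes being below the background. Of the regulators of nuclear respiratory genes 1 of 12 was higher in each group, and 6, 3 and 6 were lower, above the background in IV-D and NT-LW and near it in NT-D. NRF1 was at 0.315, 38.2 and 9.18 FPKM in the IV-D 2-cell, 4-cell and 8-cell embryo, 0.504, 9.97 and 4.46 in NT-D and 0.559, 14.6 and 2.50 in NT-LW, and GABPA at 18.3, 86.3 and 40.8, 16.3, 43.7 and 27.8, and 20.3, 52.4 and 26.4 FPKM. Both were highest at the 4-cell stage in every group. At the 2-cell to 4-cell step 8, 7 and 8 of the 12 regulators were higher.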

How the data were processed

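Oocytes and embryos were sequenced as SMART-Seq v4 libraries, without strand, in paired ends. Per the study's methods reads were aligned with HISAT2 2.0.4 to Sscrofa11.1 and counted with HTSeq 0.9.1, and the authors deposited FPKM per gene in the table used here, with 1 library per condition. The submitters' processing notes also name DESeq. How reads over 2 genes were counted is not given in the sources used here.

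The deposited FPKM were whole multiples of the value of 1 fragment for 8603 of 8603 genes, which gave fragments and a depth of 14952784 to 22991067 per library. Comparisons were differences of log2(FPKM + 1), a scale that understates changes of low genes, called past 1 with at least 1 FPKM in either library. No test between conditions was made. Poisson intervals are exact, at 95%, and cover counting error only. Ranges up to the 4-cell stage took 11 libraries and those from the 8-cell stage 12. Samples were grouped by their labels, and the NT-D oocyte library stood for both cloned groups. Positions, coding lengths and sequences are from RefSeq for Sscrofa11.1, in which 22 nuclear genes were matched through other names, and motifs were searched on both strands. Analysis used Python 3.11.15 with pandas 2.3.3, numpy 2.4.6 and scipy 1.17.1, and the scripts were tested on simulated data.

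Genes named were the 2 of highest mean FPKM in each complex, those with the largest differences between early and late stages or in the comparisons of the 4-cell to 8-cell step and of clones with IV-D, isoform sets, all mitochondrial genes, and leading genes of the lists. Others named, such as COX4I1, COX5A, TFAP2C and ND4L, were chosen after their values were seen. The genes of the set and all lists were chosen with earlier results of these data known. Lists for cumulus cells (1 gene in the table) and leukocytes (0 genes) could not be used to check the libraries. Alternatives were the pseudocount, the minimum FPKM, 3 other scalings, a binomial test on fragments beside the fold, subunits alone, and leaving out each library.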

Additional observations from a re-analysis of the deposited data

Results flagged for a closer look

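The mitochondrial genes moved in different directions between the 8-cell stage and the morula. Their median difference of log2(FPKM + 1) was 0.20 in IV-D, -0.92 in NT-D and -1.02 in NT-LW. They were singled out because both cloned groups lay below 0 and IV-D above it. Each value compares 1 library with 1 library, and the difference between groups was not tested.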

How the results depend on the processing

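Counts with a minimum of 5 FPKM, with no minimum, with a binomial test on fragments beside the fold and for subunits alone stayed within 1.5 times the values given, except that COX7A2L, the 1 gene lower in NT-LW TE, is no subunit, which leaves 0. That count was also 0 with median-ratio factors and with mitochondrial genes left out of the depth. Leaving out each library left 43 to 45 nuclear genes that did not overlap between early and late stages. With median-ratio factors the count of mitochondrial genes higher was 0 in NT-LW from oocyte to 1-cell, 5 in NT-D from 2-cell to 4-cell and 0 in IV-D from 4-cell to 8-cell, and 13 were lower in NT-LW from 8-cell to morula. Nuclear genes higher were then 12 in IV-D from 2-cell to 4-cell, and 9 in IV-D and 41 in NT-LW from morula to IT. Medians that changed sign with these factors were, for nuclear genes, -0.61 in IV-D from 2-cell to 4-cell, 0.44 in NT-D from 1-cell to 2-cell, -0.23 for NT-D minus IV-D at the 1-cell stage and -0.42 for NT-LW minus IV-D at the 2-cell stage, and for mitochondrial genes -0.33 in IV-D from 2-cell to 4-cell, -0.22 in IV-D from 4-cell to 8-cell, -0.15 in NT-D from oocyte to 1-cell and 0.32 in NT-D from morula to IT. With FPKM rescaled to a fixed sum, 2 mitochondrial genes were higher in IV-D from 2-cell to 4-cell, 4 were lower in NT-LW from 8-cell to morula, 5 nuclear genes were higher in NT-LW from morula to IT and 19 were lower in NT-D than in IV-D at the 8-cell stage. With mitochondrial genes left out of the depth, 14 nuclear genes were higher in NT-LW from 2-cell to 4-cell and 8 were lower in NT-LW than in IV-D at the 8-cell stage. Counts of clones against IV-D moved as well. Nuclear genes higher in NT-D at the 8-cell stage were 2 with a pseudocount of 0.1, 0 rescaled, 4 with median-ratio factors and 4 without mitochondrial depth, and those higher in NT-LW 3 rescaled and 8 without mitochondrial depth. Lower in NT-D with median-ratio factors were 2 in IT, 14 in the morula and, of the mitochondrial genes, 5 at the 2-cell stage. Higher in the NT-LW morula were 2 rescaled and 0 with median-ratio factors. Lower in NT-D than in NT-LW were 5 at the 2-cell stage with a pseudocount of 0.1 or rescaled, 1 with median-ratio factors, and 3 in the morula without mitochondrial depth. The median mitochondrial share over libraries, 24.2% of FPKM, was 13.1% of the fragments of the table and 11.8% of the depth. The nuclear minus mitochondrial median went up from early to late libraries by 2.12, by 2.17 with a pseudocount of 0.1, by 2.54 with means and by 1.59 with sums. On the given strand alone the motif shares of the nuclear genes were 24.6% for NRF1, 14.0% for GABPA and 31.6% for SP1, against 11.8%, 10.2% and 43.0% of the genes of the table. The cause of these changes was not tested. No paired analysis was possible because the table has 1 library per condition. At 1 library per condition no difference has a replicate error, and values from few fragments, such as those of ATP8 and of UQCR11 up to the 4-cell stage, have wide counting intervals.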
